A study of Mus musculus with 2 samples.

Results

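Among the 10547 barcodes of the 2 libraries, 66 carried 50 or more unique molecular identifiers (UMIs, each counting 1 captured RNA molecule) of Jchain, the gene of the joining chain that links IgM and IgA antibodies into polymers. That minimum alone chose them, from all barcodes as deposited, with no removal of doublets (droplets that held more than 1 cell). They are called members here. The WT library held 59 members among 5287 barcodes, 1.12% (0.851 to 1.44%, exact Clopper-Pearson 95% interval), and the KO library held 7 among 5260, 0.133% (0.0535 to 0.274%). With 1 library per genotype, the difference between those shares has no replicate check, genotype and library cannot be told apart, and every interval given here covers counting error only. Nothing was tested, and no p-value is given.

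The WT library came from wild-type mouse bone marrow cells and the KO library from Phf6 knockout mouse bone marrow cells. Both carried the same vector, with GFP and the RUNX1 frameshift mutation S291fs, so neither library is free of it. GFP-positive cells were transplanted, and 8 weeks later GFP-positive cells lacking lineage markers (Lin-) were sorted from the recipients' marrow for droplet 3′ RNA sequencing. The sources used here do not give the antibodies of the lineage stain, the ages of the mice or how many recipients each library pools. A stain for lineage markers can set the share of mature blood cells in such a sort. Vector RNA was not analysed here, so the GFP of a member is known only from the sort.

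Plasma cells are the antibody-secreting end of the B cell lineage. They give up much of the B cell programme, expand the endoplasmic reticulum (ER) and devote a large part of their RNA to immunoglobulin chains, and long-lived ones reside in the bone marrow. Each descends from a B cell that assembled 1 heavy-chain variable (V) gene segment and 1 light-chain V segment, and the constant-region gene it uses sets the antibody class. The deposited counts name V and constant genes separately, so each member can be described by its leading heavy-chain constant gene (Ighm for IgM, Igha for IgA, Ighg2b and Ighg2c for IgG subclasses) and its leading V genes.

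The V segments that led in most WT members are shown first, because they split the WT members into groups that the Jchain minimum did not use. The letters are the last 75 bases of each annotated V transcript in GENCODE M21 on GRCm38, from 5′ to 3′, with the codon of the conserved cysteine that opens the antigen-binding loop CDR3 in capitals. They are reference sequence and not read from these cells. Ighv7-3 lies at chr12:114153180-114153644 and Ighv3-8 at chr12:114322327-114322801, both on the minus strand in the heavy-chain locus. Igkv4-57-1 lies at chr6:69544359-69544907 and Igkv4-50 at chr6:69700767-69701287, both on the minus strand in the kappa light-chain locus.
Ighv7-3: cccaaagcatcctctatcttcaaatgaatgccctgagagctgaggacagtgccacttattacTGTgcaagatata
Igkv4-57-1: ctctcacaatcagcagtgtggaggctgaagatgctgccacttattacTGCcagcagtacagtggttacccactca
Ighv3-8: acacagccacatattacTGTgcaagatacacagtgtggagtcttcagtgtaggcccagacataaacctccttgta
Igkv4-50: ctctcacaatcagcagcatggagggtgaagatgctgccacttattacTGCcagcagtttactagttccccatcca
Over the whole V transcripts, Ighv7-3 and Ighv3-8 were 56.9% identical and Igkv4-57-1 and Igkv4-50 were 86.3% identical. The closest other annotated V transcript was Ighv7-4 for Ighv7-3, at 93.1% identity, and Ighv3-6 for Ighv3-8, at 78.2%. The annotated Ighv3-8 transcript is 394 bases long, against 361 for Ighv7-3, and runs further past the cysteine codon than the others shown. How much that extra length lowers the identities of Ighv3-8 was not tested. Igkv4-59 was closest to Igkv4-57-1, at 90.1%, and Igkv4-62 to Igkv4-50, at 90.6%. Counts of near-identical V genes can be split between copies, so a V gene named here is the one to which the authors' counting gave most UMIs.

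All 66 members had 500 or more genes detected and at most 10% mitochondrial UMIs, and no member's barcode sequence was among the 10 found in both libraries. Per WT member, UMIs ran from 1571 through a median of 33998 to 66573, against a median of 23164.5 in the other WT barcodes. Detected genes ran from 507 through 3465 to 7170, against a median of 4938.5 in the others. At the median, WT members therefore had more UMIs and fewer genes than the rest of their library. With every barcode thinned to 5000 UMIs, 53 WT members had 719 to 1869 genes, median 1015, and the 4550 other WT barcodes deep enough had a median of 2085.5. Mitochondrial transcripts (the mt- genes) took from 0.178% through 1.82% to 5.61% of a WT member's UMIs, against a median of 2.77% in the others.

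Immunoglobulin genes took from 21.2% through a median of 52.2% to 71.3% of each WT member's UMIs, and the median over the other WT barcodes was 0.017%. Jchain, the gene that chose them, took from 0.584% through 5.42% to 8.03%. The 59 WT members held 96.2% of all immunoglobulin UMIs of their library. In all, 6 members of the WT library and 1 of the KO library had under 5000 UMIs in all, among them the 5 WT members with the fewest Jchain UMIs. The 5 WT members just inside that minimum had 57, 67, 94, 102 and 110 Jchain UMIs, in barcodes of 1571 to 2296 UMIs. The 5 just outside had 38, 36, 35, 30 and 29 Jchain UMIs, with 951 to 3442 UMIs in all and 14.2 to 41.8% of them from immunoglobulin genes. These 5 were among 15 WT barcodes with 10 to 49 Jchain UMIs, which had a median of 921 UMIs, 340 genes and 39.0% immunoglobulin UMIs. The lowest KO members had 55 and 996 Jchain UMIs, and the highest barcode outside the minimum had 2.

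**Figure D1:**
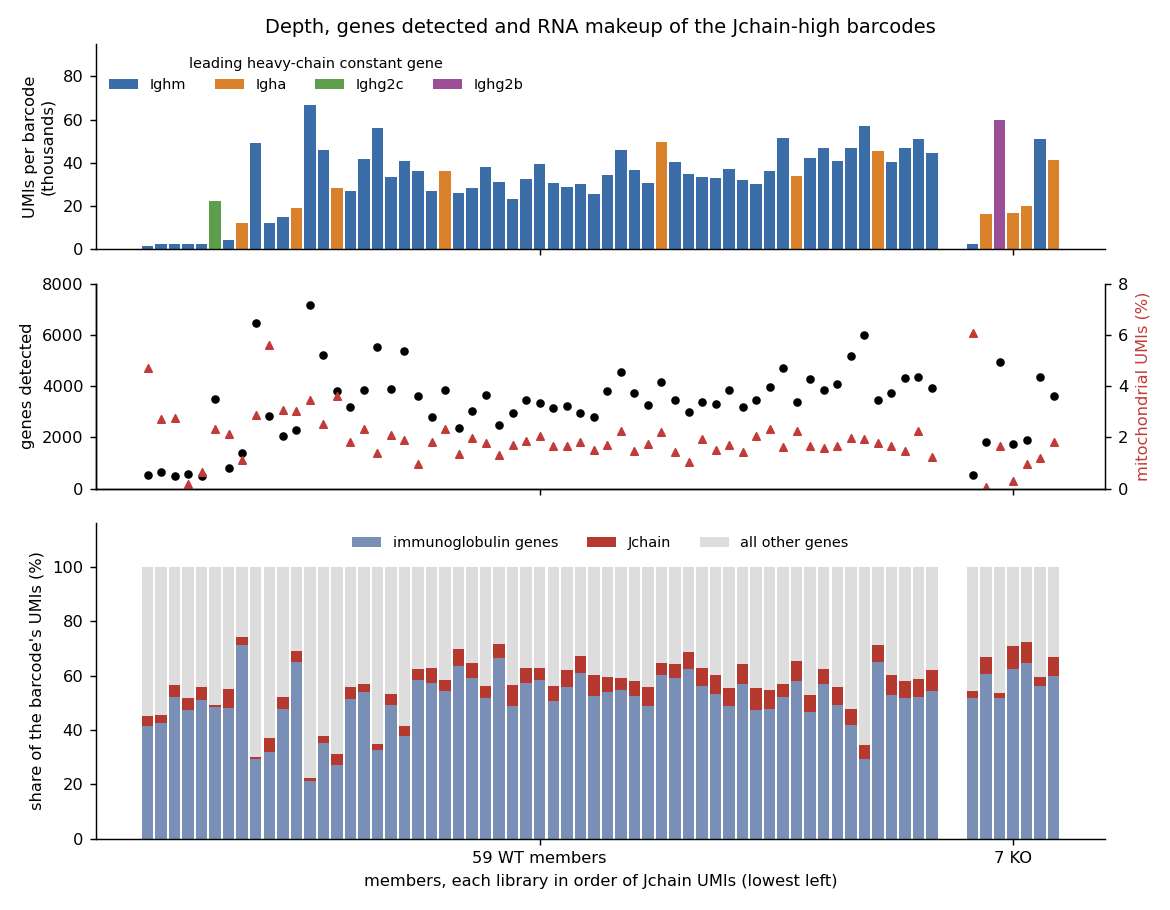
Depth and makeup of each of the 66 members, each library in order of Jchain UMIs from the left. The top panel gives UMIs per barcode in units of 1000, coloured by leading heavy-chain constant gene. The middle panel gives genes detected (black points, left axis) and mitochondrial UMIs in percent (red triangles, right axis). The bottom panel gives the percent of the barcode's UMIs from immunoglobulin genes, Jchain and all other genes. Immunoglobulin UMIs took 21.2 to 71.3% in the WT members and 51.7 to 64.4% in the KO members.

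The 7 KO members had the same makeup at lower gene numbers. Their UMIs ran from 2200 through 20184 to 59907, near the KO library's other barcodes (median 20639), and their genes from 544 through 1919 to 4927, against a median of 4782. Immunoglobulin genes took 51.7 to 64.4%, median 59.7%, and Jchain 1.87 to 8.64%. A Scrublet doublet score, set to mark 0.8% per 1000 barcodes, ranked 9 of the 59 WT members and all 7 KO members among its highest scores (224 WT and 221 KO barcodes in all). Whether these members are doublets was not tested.

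Antibody RNA was also found in the rest of each library, and whether it was free RNA from such cells was not tested. Among WT barcodes that were neither members nor marked as B cells, 79.3% had a UMI of Igkc, the kappa constant gene, and 26.1% had 1 of Jchain. In the KO library the shares were 19.9% and 2.51%, at median depths of 23195 and 20635 UMIs. Ighm had a UMI in 64.5% of these WT and 34.7% of these KO barcodes. In the KO library Ighm had 7064 UMIs in these barcodes against 9516 in the members, and Igkc had 1182 against 79949. By convention, single UMIs of antibody genes outside the members are not read as expression here. The source of the Ighm UMIs in these barcodes was not tested. Leading V genes were found in few of these barcodes, with Ighv7-3 in 17 of 5123 WT barcodes and Ighv3-8 in 12, and neither in any of 5136 KO barcodes.

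Most WT members carried IgM. Ighm led in 51 of the 59 (86.4%, 75 to 94.0%), Igha in 7 and Ighg2c in 1. In the KO library Igha led in 4, Ighm in 2 and Ighg2b in 1. The class was nearly exclusive within each barcode, since the lowest share of heavy constant UMIs held by the leading gene was 99.0% among WT members and 99.5% among KO members. Ighe and Ighg1, the IgE and IgG1 genes, had 0 UMIs in members of either library. The light chain was kappa throughout, with Igkc leading in all 66. Igkc held 87.6% or more of the light constant UMIs in each WT member, median 98.5%.

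A few V pairs recurred among the IgM members. A leading heavy V gene was assigned in 57 WT members and a leading kappa V gene in 58, from at least 2 UMIs. Of the 56 with both, 43 shared 6 pairs that each occurred in 3 or more members, and all 43 were Ighm members. The other 13 pairs occurred once each. Ighv7-3 with Igkv4-57-1 was the most common, in 16 members, and Ighv3-8 with Igkv4-50 came next, in 12. Together they made up 47.5% of the WT members. Ighv1-58 with Igkv10-94 led in 5, Ighv2-9-1 with Igkv6-23 in 4, and Ighv1-53 with Igkv4-50 and Ighv10-1 with Igkv3-7 in 3 each. Among KO members 6 pairs were seen, of which Ighv9-2 with Igkv13-85 led in 2 members, both IgA. No pair occurred in both libraries. The joins between V, D and J segments were not analysed here, so members of a pair share V genes and not necessarily a receptor.

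The V counts behind these pairs were of usable depth in most members. In the Ighv7-3 group the heavy V gene had 3 to 112 UMIs, median 57.5, and the kappa V gene 2 to 88, median 45. In the Ighv3-8 group the heavy V gene had 2 to 84, median 28, and the kappa V gene 7 to 145, median 78. The lowest of these values came from members of 2182, 2241 and 12232 UMIs in all.

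The 2 largest groups differed in how much Jchain and lambda constant RNA they held. Jchain took a median of 4.56% of UMIs in Ighv7-3 members, with 94 to 2736 UMIs, and 7.06% in Ighv3-8 members, with 302 to 3480. The ranges overlap, and Jchain also chose the members. No member was left out here. The lowest Ighv7-3 shares, 0.863, 1.26 and 2.38%, were in WT members 9, 13 and 14, numbered by rising Jchain UMIs. Each carried markers of a second lineage by the stricter count described below. So did WT members 20 and 53, at 3.43 and 5.82%, and WT member 54, which had the lowest Ighv3-8 share, 4.89%. How far such members set the difference was not tested. Iglc1, a lambda light-chain constant gene, ran from 2 through 66.5 to 218 UMIs in Ighv7-3 members and from 76 through 991 to 1780 in Ighv3-8 members. The groups overlapped in the lowest Ighv3-8 values, and 9 of its 12 members had 783 or more, above every other WT member (218 at most), as the plot of members by V pair shows. Igkc still led in all of them. Iglc1 had a UMI in 9.84% of WT barcodes that were neither members nor B cell-marked, so low values of it are not read as expression.

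**Figure D2:**
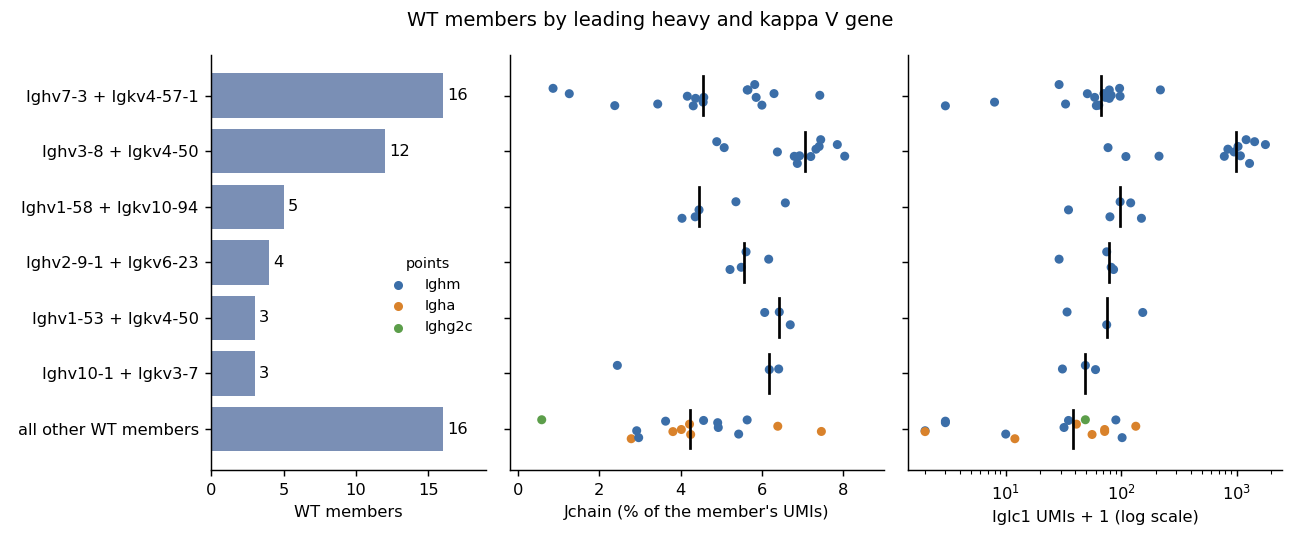
WT members by leading heavy and kappa V gene. Bars on the left give the number of members per pair. Points in the middle give Jchain as a percent of the member's UMIs, and points on the right give Iglc1 UMIs plus 1 on a log scale, coloured by leading heavy constant gene, with black lines at group medians. Ighv3-8 members had a median of 991 Iglc1 UMIs, against 66.5 in Ighv7-3 members, with overlapping ranges.

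In other genes the 2 groups were alike in most values. Over 10 Ighv3-8 and 9 Ighv7-3 members with 5000 or more UMIs and no second lineage by the stricter count described below, 1308 genes reached 100 CPM, that is UMIs per 1000000 UMIs that are not of immunoglobulin genes or Jchain. Of these, 77 (5.89%) were at least 2-fold higher in the Ighv3-8 group and 39 (2.98%) at least 2-fold lower, with a median log2 ratio of 0.10. No gene had values that failed to overlap between the groups. Selenom, which encodes an ER-resident selenoprotein, stood at a log2 ratio of 2.62 and Ufl1, the ligase for the ubiquitin-like protein UFM1, at 2.84. Mt1, a metallothionein, stood at -2.90. These genes were chosen after their values were seen.

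To describe the other genes, levels in CPM were computed from UMIs summed over the 59 WT members (871380 such UMIs) and over the other 5228 WT barcodes. That denominator leaves out the antibody RNA that took a median of 52.2% of a WT member's UMIs. Of 8520 genes with a mean level of at least 10 CPM, 1056 (12.4%) were at least 2-fold higher in the members and 1975 (23.2%) at least 2-fold lower, and the median gene had a log2 ratio of -0.32. At 4-fold the counts were 467 (5.48%) and 599 (7.03%). The higher genes were thus 34.8% of those past 2-fold. With all UMIs as the denominator the median of all genes shifts by -1.19 and that share is 5.05%, and with no minimum level it is 48.2%. The counts of genes below are read against the 12.4% and 23.2%, and log2 ratios on the all-UMI scale are lower by about that shift. Where a gene had 0 UMIs in 1 group, a floor of 3 UMIs replaced it.

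The genes that define plasma cells were mostly present in the members, and many of them were rare elsewhere. Others were common outside the members. Sec11c had a UMI in 86.1% of the other WT barcodes, Cd93 in 64.3%, Edem1 in 54.9%, Tnfrsf13b in 53.7% and Creld2 in 46.4%. The list held 22 plasma cell genes, of which Jchain was not counted because it chose the members and Ly6k lay below the minimum level. Of the other 20, 19 were at least 2-fold higher in the members and none lower, with a median log2 ratio of 7.36. Under the alternatives computed, that median ran from 4.36 to 7.73. The label fits these markers. The members had been chosen on Jchain, so this describes them and is no test.

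Among receptors, Tnfrsf17, which encodes BCMA, the receptor through which APRIL supports plasma cell survival, had a UMI in 55 of 59 WT members, with 0 to 18 UMIs and a median of 6. Its level was 411 CPM against 0.332 in the others, a log2 ratio of 10.28 (9.82 to 10.77). Tnfrsf13b, the gene of the related receptor TACI, stood at 383 against 48.1, a log2 ratio of 2.99. Sdc1, the gene of the surface marker CD138, was lower in level than these, with 0 to 11 UMIs, median 4, in 51 members and 277 against 1.27 CPM (log2 7.77). Slamf7, a surface receptor of plasma and cytotoxic cells, reached 583 against 2.34 CPM. Cd28, a costimulatory receptor that long-lived plasma cells use, had a UMI in 31 members and stood at 93.0 against 0.948. Cd93, a surface protein linked to plasma cell persistence in the marrow, was the exception in the list: it had a UMI in 27 members, and its level was 64.3 against 84.5, a log2 ratio of -0.39 (0.24 without members that carried another lineage's markers). Cd93 is also known from stem and progenitor cells.

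Regulators of the plasma cell state were present at lower counts. Irf4, a transcription factor needed for plasma cells, had a UMI in 51 WT members and stood at 518 against 1.3 CPM, a log2 ratio of 8.64. Prdm1, which encodes the repressor Blimp-1, was shallow, with 0 to 11 UMIs and a median of 1 in 41 members, and stood at 148 against 0.748 (log2 7.63). Xbp1, whose spliced product drives the secretory programme, was widespread in the library. It had 0 to 63 UMIs in the members, median 20, at 1405 against 68.9 CPM, a log2 ratio of 4.35 (4.26 to 4.44). Pou2af1, a coactivator at immunoglobulin promoters, stood at 563 against 1.55, and Tent5c, a poly(A) polymerase that stabilises immunoglobulin RNA, at 532 against 3.92. Eaf2, a transcription elongation factor, stood at 833 against 3.90. Each of these regulators was detected in 41 or more of the 59 members.

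Secretory members of the list had the deepest counts. Mzb1, an ER co-chaperone of antibody assembly and the second marker given for these cells, had a UMI in 57 of 59 WT members. Its counts ran from 0 through a median of 33 to 319, and the 2 members at 0 had 2182 and 2241 UMIs in all. The highest value came from an IgA member. Its level was 3056 against 3.39 CPM, a log2 ratio of 9.82 (9.67 to 9.96), and 1.56% of WT barcodes outside members and B cell-marked barcodes had a Mzb1 UMI. Txndc5, an ER disulfide isomerase, had a UMI in all 59, from 1 through 34 to 99. Sec11c, a signal peptidase subunit, stood at 2193 against 298 CPM, Creld2 at 569 against 45.8 and Fkbp11 at 219 against 14.7. Cacna1s, a calcium channel subunit, had the largest ratio of the list apart from Jchain, 11.07, from 0 to 12 UMIs in 42 members. Ly6k had 1 UMI in 1 member.

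Outside the list, several genes at 100 CPM or more had ratios as large. Prlr, the prolactin receptor, stood at 194 against 0.170 CPM, a log2 ratio of 10.16, and Epcam, an epithelial adhesion molecule, at 140 against 0.224 (9.29). Chst1, a sulfotransferase, had a ratio of 9.22, and Ccr10, the receptor for the mucosal chemokine CCL28, had 8.82 from 34 members. Ly6d and Ly6a, small GPI-anchored surface proteins, stood at 1055 against 8.47 and 1545 against 14.4 CPM. Ly6a encodes Sca-1, which is also used to gate stem cells, and it had a UMI in 58 of 59 members. St6gal1, the sialyltransferase that also acts on antibodies, had a ratio of 6.63 and Trp53inp1 one of 6.52. Airn, a noncoding RNA, stood at 8.07 and Dnm3, a dynamin, at 7.90.

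The ER folding machinery was higher as a list, with large differences among its genes. All 25 chaperone and folding genes reached the minimum level, 17 were at least 2-fold higher and none lower (median 1.79). Hsp90b1, the ER Hsp90 that folds immunoglobulins, stood at 3235 against 619 CPM (log2 2.39). Pdia4 stood at 893 against 67.6 (3.72), and Txndc11 at 800 against 37.1 (4.43), both of the disulfide isomerase family. Dnajb9 (2.69) and Dnajc3 (2.40) are cochaperones of BiP, and BiP itself, the product of Hspa5, was closer to the rest of the library at 1010 against 501 (1.01). Calr, at 980 against 911 (0.11), Canx (-0.46), Pdia3 (-0.03) and P4hb (-0.10) were within 2-fold of the other barcodes. Calreticulin, calnexin and Pdia3 act together on glycoproteins.

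Genes of the later secretory steps ordered by list as follows. In ER-associated degradation, which removes misfolded chains, 12 of 15 genes were at least 2-fold higher, none lower, with a median of 2.73. Derl3 led at 8.31, followed by Herpud1 at 4.23 (1008 against 53.5 CPM), Ube2j1 at 3.81 and Sel1l at 3.64. In translocation and signal peptide removal, 14 of 24 were higher and none lower (median 1.17). Tram2 stood at 4.36, Spcs1 at 3.0 and Ssr4 at 2.33, from 3170 against 629 CPM. In ER to Golgi transport, 12 of 23 were higher and none lower (median 1.01). Its COPII coat genes Sec24d (3.19) and Sec24a (2.22) had the largest ratios. In N-glycosylation, 6 of 15 were higher and none lower (median 0.72), led by Alg5 at 1.49. With all UMIs as the denominator the ER to Golgi median turned to -0.14 and the N-glycosylation median to -0.43, so their direction depends on the scale.

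Among regulators of the unfolded protein response, 5 of 11 were at least 2-fold higher and none lower (median 0.91, and -0.24 with all UMIs as the denominator). Besides Xbp1 these were Creb3l2, a membrane-bound transcription factor (4.13), the ER sensors Atf6 (2.56) and Eif2ak3 (1.95), and Ern1 (1.3), which encodes the kinase that splices Xbp1 RNA. The stress effectors Atf4 and Ddit3 both stood at 0.91, short of 2-fold, and Ppp1r15a at 0.24. By 3′ counting, spliced and unspliced Xbp1 RNA cannot be told apart.

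The ER stress element, CCAAT followed by any 9 bases and CCACG, is the site of ATF6 and NF-Y at chaperone genes, and it was searched on both strands in the 250 bases before each RefSeq start (GRCm38.p6). It occurred in 35 of 27025 genes (0.130%) and in 8 of the 20 chaperone genes with a promoter in that set. Those 8 were Calr, Canx, Creld2, Dnajc3, Hsp90b1, Hspa5, Pdia6 and Ero1b, which the files name Ero1lb. It also occurred in 2 of 13 degradation genes, Derl3 and Syvn1, and in none of the translocation, glycosylation, ER to Golgi or unfolded protein response genes with a promoter. TGACGTGG, a site of XBP1, occurred in 163 genes (0.603%). On the lists searched these were Txndc5, Txndc11, Pou2af1, Sec24d, Ube2j1, Copb1 (0.62), Vcp (0.94) and Kdelr3, which lay below the minimum level. A match describes the letters only.

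A few promoters with the ER stress element are shown, because their genes span the range of ratios, from Hspa5 (1.01) through Creld2 (3.63) to Derl3 (8.31). Each is 250 bases long, all on the plus strand and ending just before the start, with the 2 fixed parts of the element in capitals. The match reads forward in Hspa5 and in reverse in the other two. It ends 47 bases before the start in Hspa5 (chr2:34771840-34772089), 108 bases in Creld2 (chr15:88819396-88819645) and 138 bases in Derl3 (chr10:75893148-75893397).
Hspa5: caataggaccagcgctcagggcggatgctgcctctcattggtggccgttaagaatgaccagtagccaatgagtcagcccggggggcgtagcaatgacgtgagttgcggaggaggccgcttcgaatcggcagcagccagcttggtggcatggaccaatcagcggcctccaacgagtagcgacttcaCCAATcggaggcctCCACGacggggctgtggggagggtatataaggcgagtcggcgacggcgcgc
Creld2: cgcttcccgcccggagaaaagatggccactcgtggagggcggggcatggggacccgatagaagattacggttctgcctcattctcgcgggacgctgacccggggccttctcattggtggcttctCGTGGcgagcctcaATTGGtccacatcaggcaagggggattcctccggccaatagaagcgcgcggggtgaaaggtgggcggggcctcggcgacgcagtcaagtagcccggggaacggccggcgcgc
Derl3: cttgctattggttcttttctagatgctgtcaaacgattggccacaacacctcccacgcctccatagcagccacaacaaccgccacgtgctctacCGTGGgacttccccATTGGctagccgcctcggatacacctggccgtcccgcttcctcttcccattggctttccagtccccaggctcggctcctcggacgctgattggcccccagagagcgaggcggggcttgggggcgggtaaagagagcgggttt
The matched genes did not share a level difference. Canx, Calr, Pdia6 (0.88) and Hspa5 stood at ratios from -0.46 to 1.01, Ero1lb stood at 2.04, and Hsp90b1, Dnajc3, Syvn1 (2.81), Creld2 and Derl3 stood from 2.39 to 8.31.

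**Figure D3:**
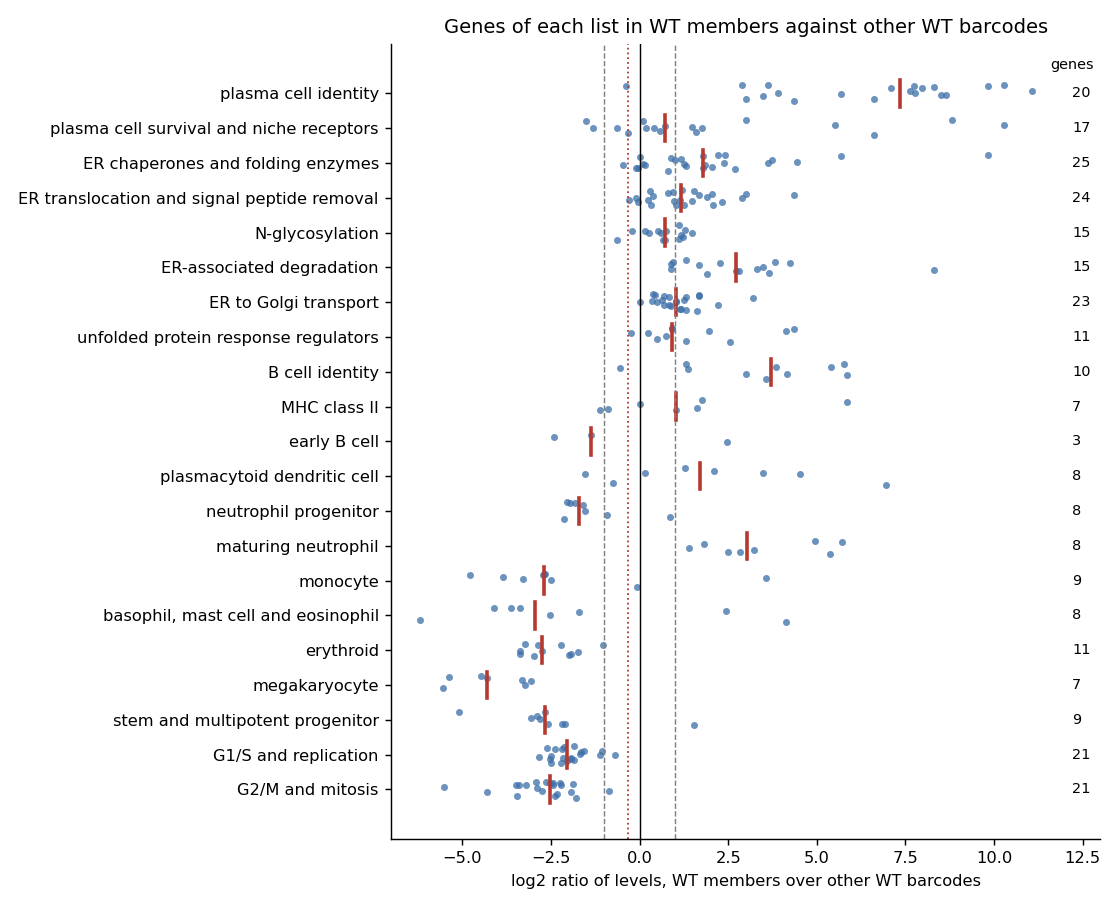
Log2 ratio of levels, WT members over other WT barcodes, for each measured gene (points) of 21 of the lists, with red bars at list medians. Dashed lines mark 2-fold either way, the dotted line marks the median of all 8520 genes (-0.32), and the numbers at the right give genes measured. The plasma cell list lies at the right (median 7.36) and the proliferation and progenitor lists at the left.

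Genes of survival and residence in the marrow were mixed. Of 18 listed, 17 were measured, 8 were at least 2-fold higher and 2 lower (median 0.72, and -0.43 with all UMIs as the denominator). Besides Tnfrsf17, Ccr10, Cd28 and Tnfrsf13b, the BAFF receptor gene Tnfrsf13c stood at 5.50, from 65.4 against 1.44 CPM. The anti-apoptotic genes Mcl1 (457 against 164, log2 1.48) and Bcl2 (328 against 108, 1.60) were higher, and Bcl2l11, which encodes their opponent Bim, stood at 1.75. Bcl2l1 was lower at -1.51, and so was the integrin gene Itgb1 at -1.32. Cxcr4, the receptor for the marrow chemokine CXCL12, stood at 0.39.

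B cell genes were retained unevenly. Of 18 listed, 10 were measured and 9 were at least 2-fold higher than in the other barcodes, 93.5% of which carried markers of a lineage outside the B cell line. Set against the 105 WT barcodes with 5 or more UMIs of Cd79a and Cd79b together, the median of the list was -1.33 rather than 3.71. In that comparison 966 of 8463 genes (11.4%) were at least 2-fold higher in the members and 1844 (21.8%) lower. Cd79a and Cd79b, which encode the signalling chains of the B cell receptor, were level with the B cell-marked barcodes, at ratios of 0.08 and 0.11, though both were used to mark them. Cd79a had a UMI in 56 of 59 members. Ms4a1 (CD20) stood at -1.57 and the B cell factors Bach2 and Ebf1 at -1.93 and -2.29 against those barcodes. Among those that were not measured, Pax5, the B cell identity factor that Blimp-1 represses, had 8 UMIs in 1 member, and Cr2, Fcer2a and Spib had none. Ebf1 was found in 5 members, 1 of which had 169 UMIs, out of 173 in all.

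Antigen presentation genes split in the same way. Of 10 listed, 7 were measured, 4 at least 2-fold higher and 1 lower (median 1.02, and -0.34 with all UMIs as the denominator). Cd74, the invariant chain, had 6 to 181 UMIs in every WT member, median 85, and stood at 5853 against 102 CPM (5.85), still 2.68 above the B cell-marked barcodes. The class II chains H2-Ab1 (1.75) and H2-Eb1 (1.63) were higher, H2-Aa stood at 0.01 and H2-DMa at -1.12. Ciita, the class II transactivator, had 0 UMIs in the members. Against the B cell-marked barcodes the list's median was -0.99.

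Other related lists were checked because such cells share genes with plasma cells. Of 14 plasmacytoid dendritic cell genes, 8 were measured, 5 at least 2-fold higher and 1 lower (median 1.70), led by Ly6d (6.96), Cox6a2 (4.53 from 10 members), Upb1 (3.48) and Tcf4 (2.10). The defining marker Siglech had 0 UMIs in the members, and Irf8 stood at -0.74. Of 10 early B cell genes, 3 were measured, with Vpreb3 higher (2.47) and Myb lower (-2.41).

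Proliferation genes were low. Of 21 G1/S and replication genes, 20 were at least 2-fold lower in the WT members and none higher (median -2.04), and of 21 G2/M genes 20 were lower and none higher (median -2.53). Mki67, the proliferation antigen, had a UMI in 25 of 59 members, at most 13, and stood at 70.0 against 244 CPM (-1.80). Top2a had a UMI in 10 members (-2.38). The mitotic cyclin gene Ccnb1 stood at 2.30 against 45.3 CPM (-4.30), and Mcm7, of the replicative helicase, at 29.8 against 167 (-2.49).

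Progenitor and myeloid lists were mostly lower. Of 9 stem and multipotent progenitor genes measured of 10, 8 were at least 2-fold lower and 1 higher (median -2.68). Mecom had 1.15 against 39.5 CPM (-5.10), Meis1 stood at -3.05 and Cd34 at -2.57. The exception was Flt3, at 1.54 with a UMI in 22 members. All 7 measured megakaryocyte genes of 10 were lower (median -4.30), as were all 11 measured erythroid genes of 12 (median -2.75). Pf4, platelet factor 4, stood at 97.5 against 1928 CPM (-4.30) and Rab27b at 3.44 against 160 (-5.53). Hbb-bs, an adult beta-globin gene, stood at 94.1 against 976 (-3.37), and WT member 23 held 44 of its 82 UMIs in the members. Of 8 neutrophil progenitor genes, 6 were lower and none higher (median -1.70), and of 8 basophil, mast cell and eosinophil genes measured of 10, 6 were lower and 2 higher (median -2.96). Few members carried much of the neutrophil progenitor RNA, since 1 held 433 and another 184 of the 677 Elane UMIs. Without members carrying a second lineage by the stricter count, the neutrophil progenitor median was -4.62. The stem and multipotent progenitor median was then -4.57, the erythroid median -4.20 and the G2/M median -3.77, while the megakaryocyte median rose to -4.07. For T and NK cells, macrophages and stromal cells, 1 gene each was measured, of 11, 10 and 9 listed. It was lower for T and NK cells and for macrophages and within 2-fold for stromal cells.

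Several genes listed under other lineages were widespread in the members. Ctss, the lysosomal protease cathepsin S, is on the monocyte list, where 7 of 9 measured genes of 10 were lower and Ctss was the 1 higher (list median -2.69). It had a UMI in 57 of 59 WT members, with a median of 16 and a highest value of 31, at 956 against 80.4 CPM (3.57). Prg2, an eosinophil granule protein gene, had a UMI in 56, with a median of 22 and a highest value of 158, at 1992 against 370 (2.43). Il5ra, the interleukin 5 receptor, had a UMI in 11 (4.13), and Ly6c2 in 41, level with the rest at -0.07. Free RNA of Prg2 was not separated from the members' own. The B cell-marked barcodes had it at 742 CPM.

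Neutrophil granule RNA came from few members. All 8 measured genes of the 10 on the maturing neutrophil list were at least 2-fold higher (median 3.03), yet that rests on 2 members. The list's UMIs ran from 0 through a median of 2 to 9448 per WT member. S100a8, an alarmin of neutrophils, had 3019 UMIs in WT member 54 and 1509 in WT member 18, members being numbered by rising Jchain UMIs. Without members that carried another lineage's markers the list's median was -4.17. The sort removed lineage-positive cells, and whether these barcodes held 2 cells was not tested.

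Counted per member, a second lineage was uncommon once the widespread genes were left out. With at least 3 genes and 10 UMIs of any of 7 other lineage lists required, 26 of 59 WT members (44.1%) and 93.5% of other WT barcodes carried 1. Leaving out Ctss, Ly6c2, Prg2 and Il5ra, a choice made after their values were seen, the count was 8 WT members (13.6%), against 93.2% of other WT barcodes. In the KO library it was 3 of 7 members before and 2 after. With every barcode thinned to 5000 UMIs, it was 4 of 53 WT members (7.55%), against 94.9% of the others, and 0 of 6 KO members. Those 5000 UMIs include antibody RNA, a median of 52.2% of a WT member's UMIs before thinning. Thinned members therefore kept fewer UMIs of other genes than thinned other barcodes, under the same cut. Of the 8, 5 led with Ighv7-3, and 4 were among the highest Scrublet scores. They had 36190 to 66573 UMIs and 3855 to 7170 genes.

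**Figure D4:**
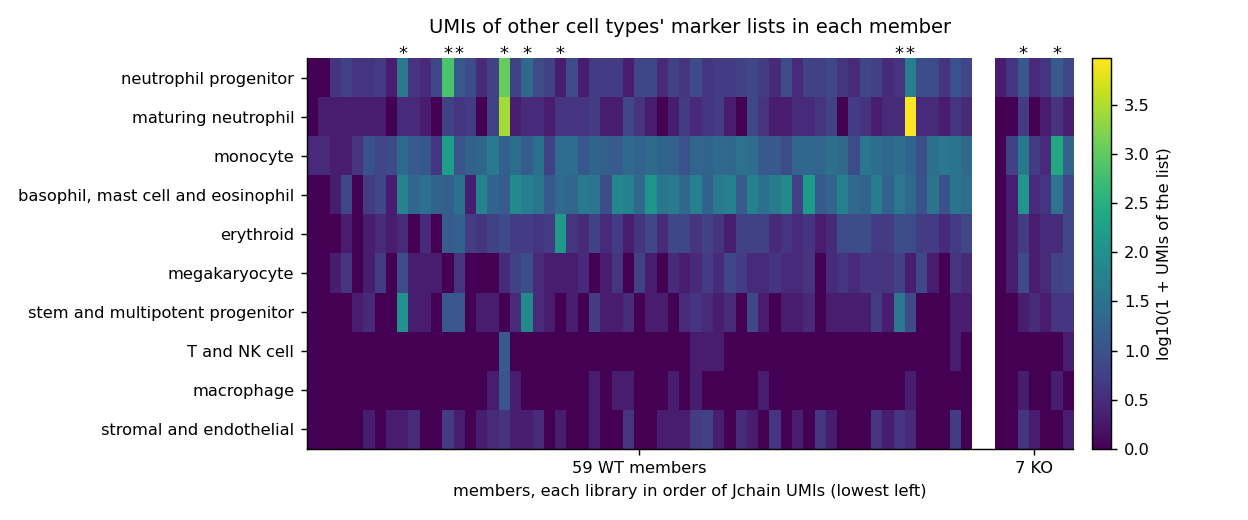
UMIs of other cell types' marker lists in each member, as log10(1 + UMIs), with libraries apart and each in order of Jchain UMIs from the left. Stars mark the 8 WT and 2 KO members that carried a second lineage's markers with Ctss, Ly6c2, Prg2 and Il5ra not counted. The highest value, 9448 UMIs, is the maturing neutrophil list in WT member 54.

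The classes of antibody were compared within the WT library, over 6 IgA and 38 IgM members with 5000 or more UMIs and no second lineage by the stricter count. Of 1283 genes at 100 CPM or more, 91 (7.09%) were at least 2-fold higher in the IgA members and 53 (4.13%) lower, with a median log2 ratio of 0.07. The depth was close, with a median of 12427 non-immunoglobulin UMIs in IgA and 13544.5 in IgM members. The genes named here were chosen after their values were seen, apart from those on the plasma cell and survival lists. Members of 1 mouse or 1 clone cannot be told apart, so these are differences between barcodes.

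Zbtb20, a transcription factor of plasma cells, was lower in IgA members. It had 1 to 8 UMIs, median 1, in IgA and 3 to 38, median 18.5, in IgM members, at 197 against 1294 CPM (log2 -2.71, -3.59 to -1.96). Per member, levels ran from 51.4 through 205 to 455 in IgA and from 341 through 1193 to 3446 in IgM, so the groups overlapped only between 341 and 455. The KO members were ordered likewise by their medians and overlapped. Levels ran from 73.1 through 297 to 1079 in 4 IgA members. They were 581 (led by Ighm) and 1371 (led by Ighg2b) in the 2 others of 5000 or more UMIs. Both of these others carried a second lineage by the stricter count, which was not used to leave out KO members. Prg2 was lower in IgA members as well, at 859 against 2793 CPM (-1.70, -2.09 to -1.33). In the KO library Prg2 ran from 188 to 540 CPM in the 4 IgA members and stood at 1501 and 4258 in the 2 others.

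Ccr10 and Cd93 were higher in IgA members. Ccr10, used by IgA cells that home to mucosa, had a UMI in 5 of 6 IgA and 25 of 38 IgM members, at 338 against 134 CPM (1.34, 0.60 to 2.02). Per-member levels overlapped. All 4 KO IgA members had 3 to 18 Ccr10 UMIs, and the 3 other KO members had 1 in all. Cd93 stood at 197 against 56.6 (1.80, 0.77 to 2.76). It was found in all 4 KO IgA members, at only 1 to 3 UMIs each (median 1), and in none of the other 3. Of those 4 KO IgA members, 2 shared Ighv9-2 with Igkv13-85. Edem1, of ER-associated degradation, stood at 1.41 (1.07 to 1.74). Runx2 had a UMI in 5 of 6 IgA and 4 of 38 IgM members (3.54), but in 1 of 4 KO IgA members.

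Other genes rested on fewer members. Rasgrp3, a Ras activator of B cells, had a UMI in 2 of 6 IgA and 35 of 38 IgM members of the WT library (-2.99). In the KO library per-member levels had a median of 93.9 CPM in IgA and 114 CPM in other members, and 1 IgA member held 10 of the 11 Rasgrp3 UMIs of the KO IgA members. Bcl2 stood at -2.03 in the WT library, with overlapping members, and its KO medians were 196 CPM in IgA and 205 in others. With 4 and 2 KO members, neither gene shows an order there. A single barcode can carry such a ratio, as for Cd52, with 628 UMIs in 1 IgA member.

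**Figure D5:**
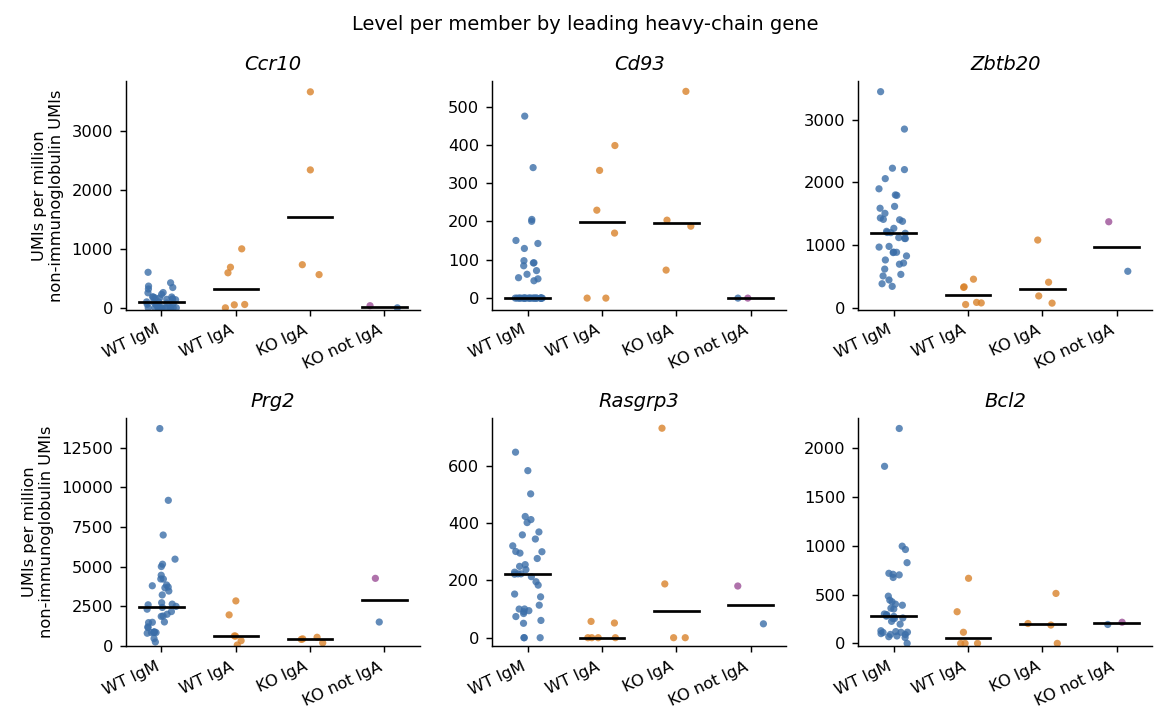
Levels per member, in CPM, of 6 genes in WT IgM (38), WT IgA (6), KO IgA (4) and other KO (2) members of 5000 or more UMIs, the WT ones without a second lineage. Each point is 1 member and black lines are medians. Zbtb20 lies at 51.4 to 455 in WT IgA and 341 to 3446 in WT IgM members. Medians of Ccr10, Zbtb20, Prg2 and Cd93 are ordered alike in both libraries, but both other KO members carried a second lineage by the stricter count.

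The few KO members carried the same plasma cell genes. Mzb1 had 528 UMIs in all 7, Xbp1 209 in all 7, Txndc5 253 in all 7 and Cd74 544 in all 7. Sdc1 had 21 UMIs in 6, Tnfrsf17 41 in 5, Prdm1 9 in 5 and Cacna1s 13 in 3. Their non-immunoglobulin UMIs came to 78846 in all, so a gene at 1 UMI would stand near the minimum level. Ctss was found in 6 of 7 (77 UMIs) and Prg2 in 6 (161 UMIs), as in the WT library. Ly6c2 had 230 UMIs in 4 KO members, 214 of them in KO member 6. No gene was compared between WT and KO members beyond these values.

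The genes that the study targeted were shallow in the members. Phf6 had 30 UMIs over 20 of 59 WT members, at most 3 each, at 34.4 against 42.8 CPM in the other WT barcodes (log2 -0.31, -0.88 to 0.20). It had 2 UMIs over the 7 KO members and stood at 21 CPM in the other KO barcodes. Which part of Phf6 was deleted is not known from the labels, so these 3′ counts do not check the knockout. Runx1 had a UMI in 39 of 59 WT members (66.1%), from 0 through a median of 1 to 79, against 96.2% of the other WT barcodes. Its level was 246 against 948 CPM, a log2 ratio of -1.95 (-2.15 to -1.75). Without members carrying a second lineage by the stricter count it was -3.09, and WT member 9, with 79 Runx1 UMIs, was among those left out. Over the 7 KO members Runx1 had 2 UMIs. Against the B cell-marked barcodes the ratio was -1.35. Whether RNA of the RUNX1 vector adds to Runx1 counts was not tested. Runx2 stood at -1.55, Runx3 at -0.96 and their partner Cbfb at -0.74, so 2 of these 5 genes were at least 2-fold lower and none higher.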

How the data were processed

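UMI counts per gene and barcode of the 2 droplet 3′ libraries were used as deposited, 32285 genes by 5287 (WT) and 5260 (KO) barcodes, with 131667969 and 120408100 UMIs in all. Per the file headers the authors' counts came from Cell Ranger 6.0.2. Per the submitters' processing notes it was Cell Ranger 3.0.1 on GRCm38. Which annotation release was used, the sources used here do not say. Deposited barcodes had already been called as cells, so free RNA outside them was not seen.

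Members were barcodes with 50 or more Jchain UMIs. They, the 25 gene lists and the V genes shown were chosen with earlier results of these data known. UMIs were summed over members and over other barcodes of 1 library, and levels were computed per 1000000 UMIs (CPM) that are not of 392 immunoglobulin genes or Jchain. Genes with a mean level of 10 CPM were kept and called at 2-fold. Log2 ratios carry exact conditional binomial 95% intervals, checked on simulated data, and shares carry Clopper-Pearson intervals. A group at 0 was set to 3 UMIs. No model was fitted, since 1 library per genotype leaves no replicates, so depth limits the precision and intervals cover counting error only. Medians of lists include genes at that floor.

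Genes were named by rule: the whole plasma cell list, up to 6 genes of each other list by size of ratio, the 25 genes with the highest and the 20 with the lowest ratio at 100 CPM or more (immunoglobulin, mitochondrial, ribosomal protein, sex-linked and predicted genes left out), constant genes, the most frequent V genes, Phf6 and Runx1. Other named genes were chosen after their values were seen: those with a promoter match, Pdia3, P4hb, Ddit3, Ppp1r15a, Mki67, Top2a, Bcl2, Mcl1, Bcl2l1, Itgb1, Cxcr4, Bach2, Ebf1, H2-Aa, Irf8, Flt3, Ly6c2, Prg2, S100a8, Iglc1, Iglv1, Ptprc, Cd24a, genes named for few or no UMIs (Pax5, Cr2, Fcer2a, Spib, Ciita, Siglech, Y-linked genes), Xist, and those of the comparisons between V pairs and between antibody classes.

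Alternatives were other Jchain minimums, denominators (all UMIs, edgeR 4.0.16 TMM factors, the mean per barcode), level minimums, a 4-fold threshold, a cell filter, thinning, the B cell-marked reference, and leaving out members by depth, doublet score (scanpy 1.11.5 Scrublet), V pair or second lineage. Promoters came from RefSeq and V segments from GENCODE transcripts. Protein sequences were not used here. Analyses ran in Python 3.11.15 with numpy 2.4.6, scipy 1.17.1 and pandas 2.3.3. Some genes of the B cell list are not reported here.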

Additional observations from a re-analysis of the deposited data

How the results depend on the processing

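With 1 library per genotype, no replicate could be left out, and small counts limit the KO members most. No paired analysis was possible because each genotype has 1 library and the 2 share a single replicate number. Leaving out the highest Scrublet scores left 0 KO members. Thinning to 5000 UMIs, antibody RNA included, left 4 WT and 0 KO members with a second lineage. Leaving Ctss, Ly6c2, Prg2 and Il5ra out of the count, without thinning, gave 8 WT members. Genes at least 2-fold higher numbered 1056 as reported, 295 with all UMIs as the denominator, 479 at a minimum level of 50 and 2836 with no minimum, and 467 were at least 4-fold higher. Genes at least 2-fold lower numbered 1975 as reported, 5551, 622 and 3052 in the same order, and 599 were at least 4-fold lower. The higher genes were 34.8% of those called, 5.05% with all UMIs as the denominator, 41.6% with TMM factors, 29.5% by the mean per barcode and 48.2% with no minimum, where the median of all genes shifts by -1.19, 0.14, -0.12 and 0.12. List medians turned in direction against the B cell-marked barcodes for B cell identity (-1.33), MHC class II (-0.99) and the erythroid list (2.26, with Hbb-bs at 2.78 and Hbb-bt at 2.19), and with all UMIs as the denominator for ER to Golgi transport (-0.14), MHC class II (-0.34), N-glycosylation (-0.43), unfolded protein response regulators (-0.24) and survival and niche receptors (-0.43). The maturing neutrophil median turned to -4.17 without members carrying a second lineage, -4.36 by the stricter count, -2.12 without the Ighv3-8 and Igkv4-50 members, -4.42 without the 5 members with most UMIs and -1.76 without the highest Scrublet scores. For each of these turns the cause was not tested, apart from the denominator and the reference, which set the scale. Of the 82 Hbb-bs UMIs in the WT members, WT member 23 held 44. Under the alternatives listed at the outset, list medians moved by less than 0.5 in 215 cases, moved further in 64 (3 of them, from under 2-fold, changed sign) and turned from 2-fold or more in 5. Alternatives added after seeing the data gave 98, 27 and 5. Ratios of single genes stayed within their counting interval in 499 of those cases, moved in 160 and turned from 2-fold or more in none, and gave 215, 82 and 2 under the added ones. From under 2-fold, Cd93 changed sign to 0.02 by the mean per barcode and 0.24 without members carrying a second lineage, and Phf6 to 0.08 without those members.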

Other observations

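Xist, the RNA of the inactive X chromosome, had 610 UMIs over the WT members, at 700 CPM against 900 in the other WT barcodes (log2 -0.36). The Y-linked genes Ddx3y, Eif2s3y, Kdm5d and Uty had 0 UMIs in the WT members and 10, 3, 2 and 2 in the other WT barcodes. The pan-leukocyte gene Ptprc stood at a log2 ratio of 0.13 and Cd24a at -0.40. Iglv1, a lambda V gene, had a UMI in 57 of 59 WT members, with a median of 9 and a highest value of 254, although Igkc led in each of them.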
